A study of Mus musculus with 6 samples.

Results

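The chemokine, interleukin and receptor genes described here are the protein-coding genes whose symbol begins with Ccl, Ccr, Cxcl, Cxcr or Il followed by a digit. The table lists 25631 genes, of which 17773 are protein coding, and 112 of these fit the rule. By role, 60 are ligands, 50 are receptors or receptor chains, 1 is an enzyme and 1 is a binding protein. RNA was sequenced from oocytes of female ICR mice, an outbred stock, that were 14 months old and thus naturally aged. Mice of both groups were injected with equine chorionic gonadotropin, which makes antral follicles grow, and the oocytes were punctured out of large antral follicles. The aminophylline group (n = 3 libraries) had drunk water with 4 mM aminophylline for 1 week and then water alone for 3 weeks, and the control group (n = 3 libraries), labelled aged and untreated, had drunk water without it. Aminophylline is a theophylline derivative and a nonspecific inhibitor of phosphodiesterases, the enzymes that break down cAMP. The sources used here do not give the number of mice or oocytes in a library, or whether the libraries of a group came from separate mice, so p-values measure the spread between these libraries only.

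Chemokines are small secreted proteins that attract leukocytes through G protein-coupled receptors, and interleukins are secreted proteins through which cells of the immune system signal to each other and to other tissues. Most interleukin receptors are built of several chains, so that a cell needs each chain to respond, and they act through JAK kinases and STAT factors or, for the IL-1 and IL-17 families, through NF-kB. In the ovary these proteins are best known from the leukocytes, granulosa cells and stroma around the follicle, in ovulation and in the inflammation that comes with age.

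Levels are given as FPKM, the fragments counted on a gene scaled by the length of its transcript and by the total of the library, which allows levels to be compared between genes. The whole reads behind the FPKM came to 14112341 to 33641283 per library, and the smallest library was control 2. All 12 oocyte markers were above FPKM 1 in all 6 libraries, and Zp3, a protein of the zona pellucida, stood at 3070 to 5680. Of 13 macrophage markers, 10 were highest in control 1, and their summed FPKM was 243 there against 84.3 to 105 in the other libraries. Lyz2 was at 66.4 in control 1 and at no more than 0.573 elsewhere, and C1qc was at 14.8 in control 1 and listed at 0 elsewhere. C1qb, of the same list, was at 72.3 to 99.8 in all 6 libraries. The number of genes reaching FPKM 1 and the tests that rest on control 1 are therefore given with and without it. Counts by family are given over all 6 libraries only.

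Of the 112 genes, 37 reached FPKM 1 in at least 1 library, 33 in at least 3 libraries and 25 in all 6. Among all protein-coding genes of the table, 54.4% reached FPKM 1 in at least 1 library and 43.1% in all 6. The 37 genes were 21 of the 60 ligands and 16 of the 50 receptors. By family they were 9 of 21 CC chemokines, 3 of 10 CXC chemokines, 2 of 15 chemokine receptors, 6 of 9 genes of the IL-17 family, 4 of 7 of the IL-10 family, 5 of 16 of the IL-1 family, 4 of 13 of the gp130 and IL-12 family, 3 of 14 of the common gamma chain and IL-4/IL-13 family, and none of the 4 genes of IL-3, IL-5 and their receptors. The remaining gene was Il34. In single libraries, 34, 29 and 28 of the genes reached FPKM 1 in controls 1 to 3 and 29, 34 and 33 in aminophylline 1 to 3, so the 2 groups overlapped. Without control 1, 34 of the 112 genes reached FPKM 1 in at least 1 library and 31 in at least 3. In all, the control or the aminophylline mean was FPKM 10 or more for 11 of the genes.

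**Figure D1:**
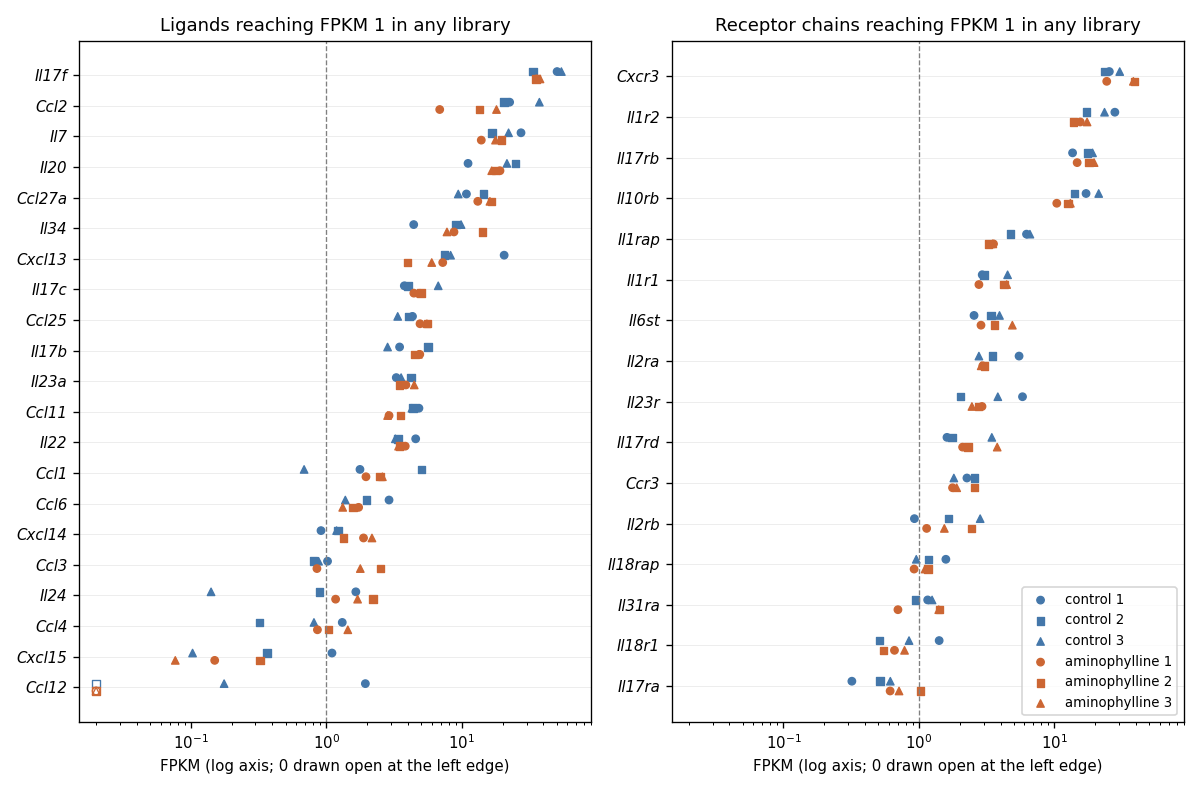
FPKM (log axis) of the 21 ligands and 16 receptor chains that reached FPKM 1 in any library, in each of the 6 libraries (blue, control; orange, aminophylline; circle, square and triangle for replicates 1, 2 and 3; open symbols for 0). The dashed line marks FPKM 1. Il17f and Cxcr3 lead the ligands and the receptors, and Ccl12, at the foot of the ligands, is above the line in control 1 only.

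The highest ligand was Il17f, a cytokine of T helper cells, and the highest receptor was Cxcr3, the receptor of the interferon-induced chemokines. Cxcl13, a B cell attractant, was called lower with aminophylline in the comparison below, but that call rested on control 1. Sequence from just upstream of a RefSeq start of Il17f, of Cxcr3 and of Cxcl13 is shown to give their context. Each is the 250 bases that precede that start (GRCm38.p6), printed 5′ to 3′ on the strand of the gene, and ends at the base before the start. Capitals mark 3 motifs found by letter on both strands, the TATA box (TATAAA), an NF-kB site (GGG, any 5 bases, then CC) and the core of the cAMP response element (TGACG). The windows lie at chr1:20784271-20784520 on the minus strand for Il17f, at chrX:101734148-101734397 on the minus strand for Cxcr3 and at chr5:95956689-95956938 on the plus strand for Cxcl13. Other annotated transcripts of Il17f start further upstream, and the first bases of its window lie in an exon of one of them.
Il17f: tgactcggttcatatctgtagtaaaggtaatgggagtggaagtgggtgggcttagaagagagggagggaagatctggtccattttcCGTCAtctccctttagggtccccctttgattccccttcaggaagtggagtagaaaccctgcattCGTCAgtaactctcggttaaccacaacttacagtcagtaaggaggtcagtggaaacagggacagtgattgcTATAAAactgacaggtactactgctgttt
Cxcr3: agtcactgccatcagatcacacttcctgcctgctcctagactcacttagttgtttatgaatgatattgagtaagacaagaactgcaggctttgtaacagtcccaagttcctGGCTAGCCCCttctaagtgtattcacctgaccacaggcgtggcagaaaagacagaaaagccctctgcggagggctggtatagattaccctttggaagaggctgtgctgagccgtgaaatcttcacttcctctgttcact
Cxcl13: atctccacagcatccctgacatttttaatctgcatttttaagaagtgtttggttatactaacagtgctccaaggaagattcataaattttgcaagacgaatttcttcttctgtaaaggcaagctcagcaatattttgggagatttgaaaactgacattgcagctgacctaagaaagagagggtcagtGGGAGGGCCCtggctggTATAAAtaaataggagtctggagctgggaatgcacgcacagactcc
Il17f held 1 TATA box and 2 cAMP response element cores, Cxcr3 held 1 NF-kB match, and Cxcl13 held 1 TATA box and 1 NF-kB match. Of 27025 promoter windows of the same length, 13% held the TATA box, 45.4% the NF-kB letters and 17.9% the cAMP response element core. RefSeq windows were given for 26 of the 37 genes, of which 6 held the TATA box, 10 the NF-kB letters and 4 the cAMP response element core. These are matches of letters and not measured sites.

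Il17f stood at FPKM 50.4, 33.5 and 54.2 in controls 1 to 3 and at 35.6, 35.2 and 37.7 in aminophylline 1 to 3. Controls 1 and 3 were the highest and control 2 was below all the aminophylline libraries, so the groups overlapped. Other genes of the IL-17 family were also present in all 6 libraries. Il17b, a ligand of the same family, stood at 2.83 to 5.61, and Il17c, an epithelial cytokine, at 3.76 to 6.69. Il17rb, the receptor of IL-17B, stood at 13.6 to 19.6, and Il17rd, a receptor of the same family, at 1.61 to 3.78. Il17ra, the chain shared by receptors for IL-17A, IL-17F and IL-17C, stood at 0.32 to 0.713 in 5 libraries and at 1.03 in aminophylline 2. Il17rc, its partner in the receptor for IL-17F, stood at no more than 0.515, and Il17re, its partner for IL-17C, at no more than 0.0225, which was 1 read. Within this family Il17b and Il17rb were thus both above FPKM 1 in all 6 libraries. Il17f and Il17c were above it and the chains of their receptors were not, except Il17ra in 1 library. For IL-17B no chain other than Il17rb was compared, so a full receptor was not shown for it.

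The same comparison was made for the other ligands and receptors that reached FPKM 1. Cxcr3 stood at 25.4, 23.6 and 30.3 in the controls and at 24.3, 39.1 and 38.2 in the aminophylline libraries. Aminophylline 2 and 3 were above the controls and aminophylline 1 was among them. Its ligand Cxcl10 had at most 1 read in a library. Ccl2, the main attractant of monocytes, stood at 6.86 to 37.3, and its receptor Ccr2 had at most 1 read in a library. Ccl27a, a chemokine of skin and other epithelia, stood at 9.4 to 16.5 with its receptor Ccr10 at most at 1 read, and Ccl25, the chemokine of thymus and gut, stood at 3.36 to 5.57 with its receptor Ccr9 at no more than 0.0827. Among the chemokines compared with a receptor, Ccl11, the eosinophil attractant eotaxin, was the one whose receptor was present too, with Ccr3 at 1.77 to 2.58. For Cxcl13, Cxcl14 and Cxcl15 no receptor was compared. Of the 15 chemokine receptors named Ccr or Cxcr, Cxcr3 and Ccr3 reached FPKM 1 in a library and the others did not. Ackr3, an atypical chemokine receptor outside the symbol rule, stood at 1.91 to 3.42.

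Il7, a growth factor of lymphocytes, stood at 13.9 to 27.3, with Il2rg, a chain of its receptor, at no more than 0.232. Il20, of the IL-10 family, stood at 11.1 to 24.9, with its receptor chain Il20rb at 1 read at most. Il22, another of that family, stood at 3.23 to 4.56, and Il10rb, a chain of the receptors for IL-10 and IL-22, at 10.4 to 21.2. Il34, a ligand of the receptor of macrophage colony-stimulating factor, stood at 4.41 to 14.2, and that receptor, Csf1r, at 0.11 to 0.437. For IL-23, the subunit Il23a stood at 3.28 to 4.45 and the receptor chain Il23r at 2.02 to 5.81, while the second subunit Il12b stood at no more than 0.17 and the second chain Il12rb1 at no more than 0.0634. For IL-1, the chains Il1r1 (2.77 to 4.51) and Il1rap (3.25 to 6.59) and the decoy receptor Il1r2 (13.8 to 27.9) were present in all 6 libraries, and the ligand Il1a stood at no more than 0.0994. For IL-2, the chain Il2ra stood at 2.77 to 5.48 and Il2rb at 0.926 to 2.83, while the ligand Il2 stood at no more than 0.133. Il6st, the gp130 chain shared by the receptors of the IL-6 family, stood at 2.55 to 4.89, above its partners Il6ra (no more than 0.108), Il11ra1 (0.432 to 0.939) and Lifr (0.204 to 0.502). Of 137 RefSeq protein-coding symbols that fit the rule, 25 are not listed and could not be analysed here. They include Il7r, Il20ra, Il22ra1, Cxcl9, Cxcl11 and Il1b. No listed gene is at 0 in all 6 libraries, and the counts per family above are of listed genes only. Whether the missing genes had no reads is not given in the sources used here.

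**Figure D2:**
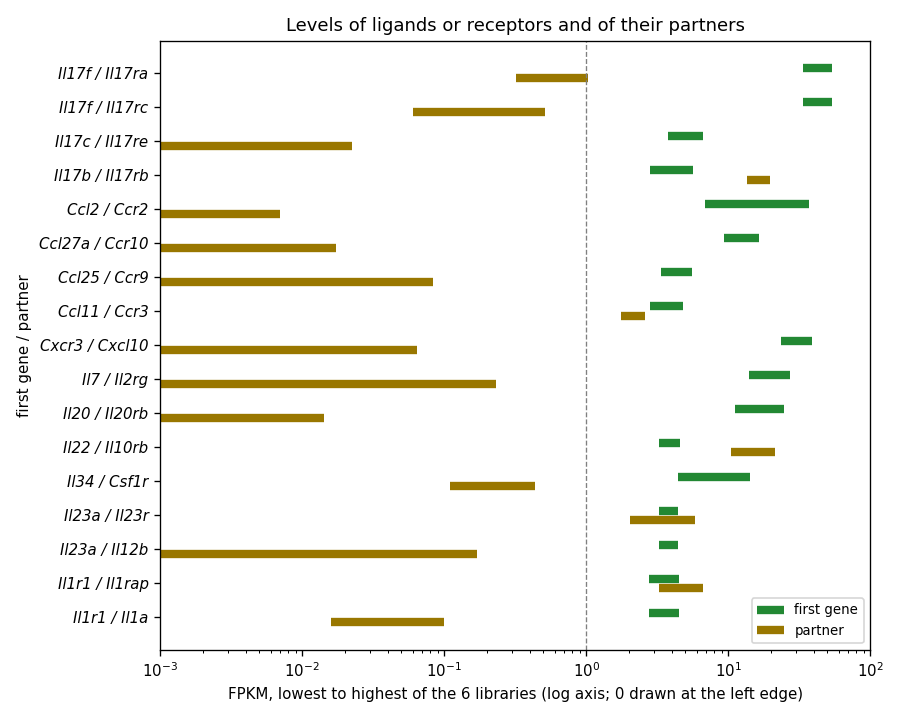
FPKM (log axis) of 17 pairs of a gene above FPKM 1 and its ligand, receptor, subunit or chain. Each bar runs from the lowest to the highest of the 6 libraries, green for the first gene of the pair and brown for its partner, the dashed line marks FPKM 1, and values of 0 lie at the left edge. Il17b with Il17rb, Ccl11 with Ccr3, Il22 with Il10rb, Il23a with Il23r and Il1r1 with Il1rap have both bars right of the line.

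The 112 genes include families that lie side by side, and the level differed between neighbours. In the chemokine cluster of chromosome 11 from Ccl2 to Ccl1 (chr11:82035577-82179812), 4 of 6 genes reached FPKM 1, and Ccl7, 8259 bases from Ccl2, stood at no more than 0.0371. Of the 4, Ccl12 reached FPKM 1 in control 1 only. In the next cluster of that chromosome, from Ccl5 to Ccl4, 3 of 5 genes reached FPKM 1. In the IL-1 receptor cluster of chromosome 1 (chr1:40084692-40551707), 4 of 6 genes reached FPKM 1, among them Il1r2 and Il1r1, while Il1rl2 and Il1rl1 stood at no more than 0.0565 and 0.00541. Il18r1, also among the 4, reached FPKM 1 in control 1 only. Of the 37 genes, 9 share exon bases with another annotated gene in GENCODE M21. The strand setting of the authors' counting is not given in the sources used here, so reads of such genes could not be assigned with certainty. They include Il10rb, which shares 569 exon bases with a predicted gene on the same strand. Il1rap shares 552 bases with a predicted gene on the opposite strand listed at no more than 0.13. Ccl25 shares 204 bases with Elavl1 on the opposite strand at 2 to 3.25. Il17rb shares 141 bases (3.8% of its exon bases) with Actr8 on the opposite strand at 10.2 to 15.8. Il17b shares 141 bases (14.5%) with a predicted gene on the opposite strand that is not listed.

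Aminophylline was compared with control over the 33 genes that reached FPKM 1 in at least 3 libraries, in a fit with limma on log2(FPKM + 1) across all 10340 genes that did so. A gene was called at an unadjusted p under 0.05 and a fold change over 1.5. Of the 33 genes, 3 were called lower and 0 higher with aminophylline. Among all 10340 genes, 1.13% were called lower and 2.08% higher, 3.21% in either direction. At an unadjusted p under 0.05 alone there were 5 of the 33 genes, all lower, against 7.25% of all genes. That count was 10 without control 2, against 1617 of all 10340 genes, and Ccl1 and Ccl27a among the 10 were higher. Without control 1 it was 3, with Il24 higher, against 369 of all genes. Without control 3 it was 3, against 1474 of all genes, and without aminophylline 2 it was 1, against 329. By limma 0 of the 33 genes, and 0 of all genes, had an adjusted p under 0.05 (Benjamini-Hochberg over all 10340 genes), and the smallest adjusted p among the 33 was 0.661. With the replicate numbers as a block, 1 of the 33 and 47 of all genes were under 0.05, and the calls among the 33 were again 3 lower and 0 higher. The median log2 fold change was 0.02 over the 33 genes and 0.095 over all genes tested, and 17 of the 33 were above and 16 below 0. Leaving out control 2 raised the genes called lower to 6 of the 33, against 403 of all genes. Leaving out control 1 or aminophylline 2 left 1, against 60 and 86 of all genes. Higher calls numbered 1 without control 1 (Il24) and without control 2 (Ccl1), against 123 and 360 of all genes. They numbered 2 without aminophylline 1 (Ccl3 and Il24), against 476 of all genes. Over all genes the split of 215 higher and 117 lower calls turned to 132 and 227 with median centring, and leaving out a library gave 123 (without control 1) to 876 (without control 3) higher and 60 (without control 1) to 403 (without control 2) lower calls. With 3 libraries against 3, an exact permutation test of a single gene cannot give a two-sided p below 0.1.

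**Figure D3:**
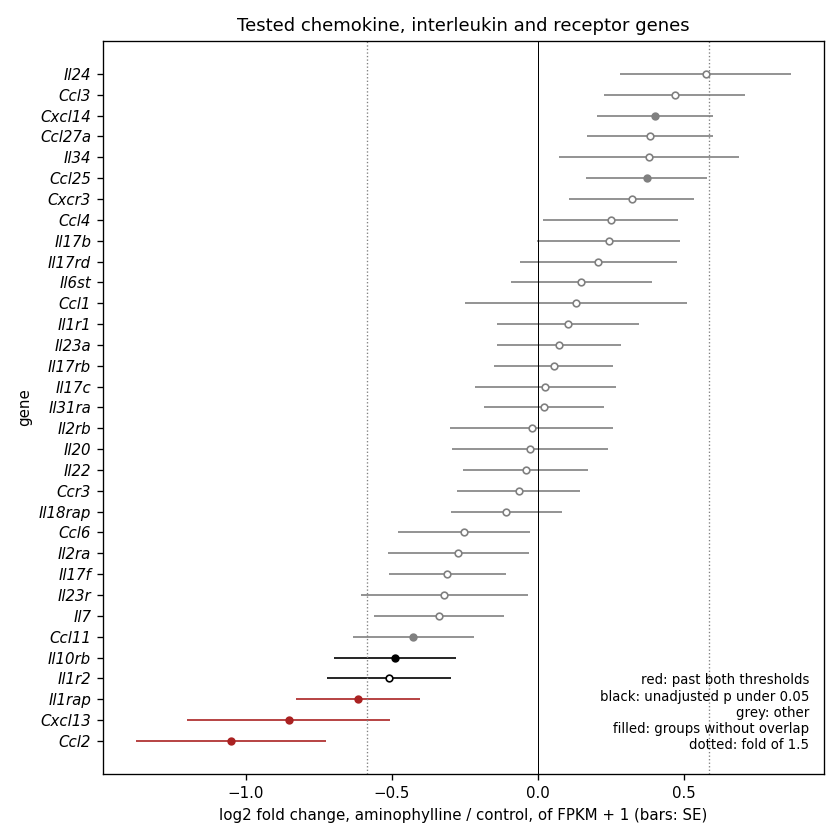
Log2 fold change of FPKM + 1, aminophylline over control, with its standard error from limma, for the 33 genes tested. Red genes are past both thresholds, black genes have an unadjusted p under 0.05 with a fold under 1.5, filled points mark groups without overlap, and the dotted lines mark a fold of 1.5. Ccl2, Cxcl13 and Il1rap are past the line on the lower side and no gene is on the higher side.

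Ccl2 lies on chromosome 11 (chr11:82035577-82037452). It stood at FPKM 22.5, 20.4 and 37.3 in controls 1 to 3 (610, 232 and 957 reads) and at 6.86, 13.5 and 18 in aminophylline 1 to 3 (156, 270 and 444 reads). Every aminophylline library was below every control. The means were 26.7 ± 9.23 and 12.8 ± 5.61 (SD, n = 3 each). The log2 fold change was -1.05 (SE 0.32, unadjusted p = 0.0079, adjusted p = 0.661 by limma). With the replicate numbers of the labels as a block, the adjusted p by limma was 0.0219, which made Ccl2 the 1 gene of the 33 under 0.05 in that fit. The call remained without each of the 6 libraries in turn, at -1.33 to -0.69, and was lost in an unmoderated linear model (unadjusted p = 0.0838 from that model, not from limma's moderated test). In bulk libraries, fewer cells that carry a transcript and less of it per cell cannot be told apart.

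Il1rap, the chain that IL-1, IL-33 and IL-36 receptors share, stood at 6.22, 4.74 and 6.59 in the controls and at 3.55, 3.25 and 3.51 in the aminophylline libraries. The aminophylline libraries lay close together and below all the controls. The means were 5.85 ± 0.98 and 3.44 ± 0.161 (SD, n = 3 each), and the log2 fold change was -0.62 (SE 0.21, unadjusted p = 0.0147, adjusted p = 0.676 by limma). The fold fell under 1.5 without control 1 (-0.57) and without control 3 (-0.54), and without aminophylline 2 the unadjusted p by limma was 0.056. The decoy receptor Il1r2 stood at 27.9, 17.3 and 23.4 in the controls and at 15.5, 13.8 and 17.4 with aminophylline, where aminophylline 3 was just above control 2. Its log2 fold change of -0.51 (unadjusted p = 0.0354, adjusted p = 0.682 by limma) did not reach a fold of 1.5, which it passed without control 2 (-0.69) and without aminophylline 3 (-0.59). Without each of the other 4 libraries the unadjusted p by limma was above 0.05, and without control 1, where Il1r2 was highest, the log2 fold change was -0.36 (unadjusted p = 0.131 by limma). The signalling chain Il1r1 stood at 2.93, 3.02 and 4.51 in the controls and at 2.77, 4.25 and 4.44 with aminophylline, which overlapped.

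Cxcl13 stood at 20.5, 7.44 and 8.25 in the controls and at 7.22, 3.96 and 5.99 with aminophylline. The groups did not overlap, with control 1 far above all other libraries and aminophylline 1 just below control 2. The means were 12.1 ± 7.33 and 5.73 ± 1.65 (SD, n = 3 each), and the log2 fold change was -0.85 (SE 0.35, unadjusted p = 0.0318, adjusted p = 0.682 by limma). Without control 1, the library with the highest macrophage markers, it was -0.42 with an unadjusted p of 0.151 by limma, so the call rested on that library. It was also lost without aminophylline 2 (-0.65), with no filter on low genes (unadjusted p = 0.0766 by limma) and in the unmoderated model. The part of the macrophage transcripts in this result was not tested. For comparison, without control 1 Ccl2 was at -1.15 and remained called.

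Il10rb stood at 17.1, 14 and 21.2 in the controls and at 10.4, 12.6 and 13.1 with aminophylline, all below the controls. Its log2 fold change was -0.49 (SE 0.21, unadjusted p = 0.0392, adjusted p = 0.682 by limma), short of a fold of 1.5, which it passed without control 2 (-0.63). Without each of the other 5 libraries the unadjusted p by limma was 0.0543 to 0.149, with 0.0692 without control 1. Ccl11 stood at 4.82, 4.36 and 4.28 in the controls and at 2.9, 3.54 and 2.83 with aminophylline, also without overlap, and with a log2 fold change of -0.43 it did not pass the test (unadjusted p = 0.0628 by limma). On the other side, Cxcl14, a chemokine of epithelia, stood at 0.913, 1.22 and 1.19 in the controls and at 1.88, 1.34 and 2.17 with aminophylline. Its log2 fold change was 0.40 (unadjusted p = 0.0699 by limma). Ccl25 stood at 4.32, 4.06 and 3.36 in the controls and at 4.91, 5.57 and 5.52 with aminophylline, with a log2 fold change of 0.37 (unadjusted p = 0.102 by limma). Both were without overlap and did not pass the test. In all, the groups did not overlap in 7 of the 33 genes (21.2%), 5 lower and 2 higher, against 12.5% of all genes tested, with 4.96% lower and 7.51% higher.

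**Figure D4:**
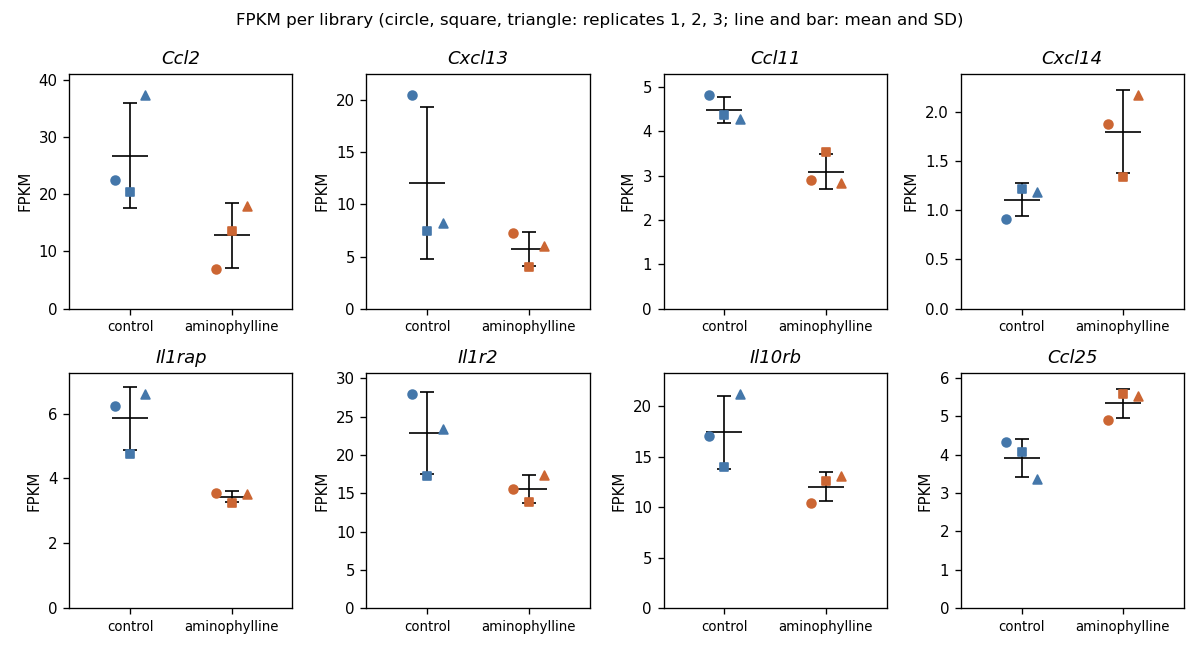
FPKM of 8 genes in each library (circle, square and triangle for replicates 1, 2 and 3), with the mean and SD of each group (n = 3), on axes that start at 0. The groups overlap in Il1r2 and in none of the other 7 genes, and control 1 of Cxcl13, at 20.5, stands far above the other libraries.

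The other 25 genes tested had log2 fold changes of -0.34 to 0.57, with an unadjusted p by limma above 0.05 for each. Under at least 1 other processing 10 of them changed sign, none of these with a log2 fold change beyond 0.15 in size, and the other 15 kept their sign. Il24, a cytokine of the IL-10 family, stood at 1.65, 0.889 and 0.141 in the controls and at 1.17, 2.21 and 1.7 with aminophylline, and control 1 lay among the aminophylline libraries. Ccl1, an attractant of T cells, stood at 1.77, 5.05 and 0.685 in the controls and at 1.96, 2.48 and 2.59 with aminophylline, so that the controls lay on both sides of the other group.

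Of the 37 genes, 4 reached FPKM 1 in 1 library alone and were not tested. Ccl12, a mouse monocyte attractant beside Ccl2, had 35 reads in control 1 (FPKM 1.94), 3 in control 3 and none in the other 4 libraries. Cxcl15, a lung chemokine, stood at 1.1 in control 1 and at 0.0768 to 0.366 elsewhere. Il18r1, a chain of the IL-18 receptor, stood at 1.41 in control 1 and at 0.514 to 0.845 elsewhere, and its partner Il18rap stood at 0.921 to 1.58. The last of them was Il17ra in aminophylline 2, given above. Thus 3 of the 4 passed FPKM 1 in control 1.

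Of the 75 genes under FPKM 1 in every library, the highest was Il12rb2, a chain of the IL-12 receptor, at 0.964 in control 1. Il11ra1 came next at 0.939 in control 2, and Il4ra, a chain of the IL-4 and IL-13 receptors, at 0.903 in aminophylline 1. The next 7 were Il3 (highest value 0.618), Il13ra2 (0.577), Il17rc (0.515), Ccr1l1 (0.51), Il31 (0.501), Il17d (0.489) and Ccl28 (0.483). At the threshold itself, Il17ra (1.03) and Cxcl15 (1.1) were the lowest inside it, and Il12rb2 and Il11ra1 the highest outside. Counted in reads, 94 of the 112 genes had at least 3 reads in some library, and 87 without control 1. In all 6 libraries 45 had them, and 18 had fewer in every library, which is too few to measure a level. Those 18 include Ccl5, Cxcl10, Cxcl12, Ccr2, Ccr7, Il10 and Il13. For them presence could not be told from absence at this depth, and a count of 0 allows up to 3 reads in a library.

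The number of the 112 genes with at least 3 reads was 71, 53 and 65 in the controls and 63, 62 and 75 with aminophylline, and was lowest in control 2, the smallest library. After thinning each library to the 14112341 reads of control 2, the numbers were 58, 53 and 54 against 56, 55 and 60, which overlap. In 19 genes a single library had 3 reads or more. Of these, 7 were in control 1 (among them Ccl22, Ccl8, Cxcl1 and Il16), 5 in aminophylline 3, and 1 or 2 in each of the others. Also among the 7 were Ccl9 with 21 reads in control 1 and at most 2 elsewhere, and Cxcl16 with 18 reads in control 1 and 0 elsewhere. Control 1 was also the largest library, at 33641283 reads, and these counts of genes in a single library were not thinned. Macrophage markers were highest in the same library. The part of the markers and of the depth in these counts was not tested. T and NK cell markers (6 genes listed, summed FPKM 0.655 to 1.36) and mast cell markers (3 genes listed, no more than 0.705) were low in all 6 libraries. Among B cell markers, Cd79a, Cd79b and Jchain stood at no more than 0.821, while Ms4a1 stood at 56.6, 38.7 and 53.7 in the controls and at 35, 34.9 and 35.9 with aminophylline, without overlap and with a log2 fold change of -0.465. Of 12 granulosa and cumulus markers, whose summed FPKM was 9.8 to 17.4, Cyp19a1 stood at 7.37 to 15.7 and Inha at 0.417 to 1.66, above FPKM 1 in 5 libraries. The other 10 were under FPKM 1 in all 6 libraries, with Kitl at up to 0.78 and Foxl2 and Amh, which define granulosa cells, at no more than 0.197 and 0.0208. The part of such cells in the levels above was not tested.

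**Figure D5:**
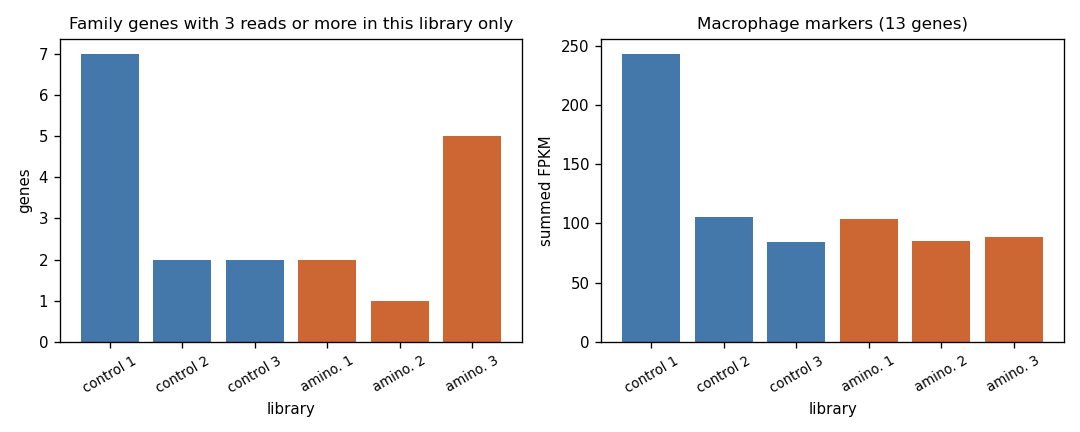
Left, the number of the 112 genes that had 3 reads or more in that library and in no other. Right, the summed FPKM of 13 macrophage markers. Bars are the 6 libraries (blue, control; orange, aminophylline). Control 1 is highest in both, with 7 genes and a summed FPKM of 243. It was also the largest library, and the gene counts were not thinned.

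The genes that carry the signal of these receptors were taken from lists of the pathways. Of 26 JAK-STAT genes, 16 were tested and 1 was called higher and 0 lower, against 2.08% and 1.13% of all genes. It was Pias4, an inhibitor of STAT factors that attaches SUMO, at FPKM 4.1, 6.82 and 12.2 in the controls and 13.4, 14.7 and 18.5 with aminophylline, all above the controls. Its log2 fold change was 1.02 (SE 0.31, unadjusted p = 0.00749, adjusted p = 0.661 by limma, and adjusted p = 0.0329 with the replicate block). With the block a further gene of this list, Socs7, a suppressor of cytokine signalling, was called higher. Higher calls over all 10340 genes were 268 with the block, against 215 without it. Without control 3 the calls over the lists of this and the next paragraph rose from 1 to 7 of 37 genes tested. All 7 were higher (Pias4, Socs7, Stat3, Rela, Tollip, Gnai2 and Csf1). In that fit higher calls over all genes rose from 215 to 876. The highest genes of the list were the phosphatase Ptpn2 (33.3 to 62.6) and Pias1 (27.8 to 45.6), while Jak1, a kinase of many of these receptors, stood at 6.6 to 15.2. Of 24 genes from the IL-1 and IL-17 receptors to NF-kB, 10 were tested and 0 were called by limma in either direction, with 0 at an unadjusted p under 0.05 and 0 also by voom on the reads of these genes. When voom was run on all genes with 10 reads in 3 libraries, Irak1 and Relb were called higher, of 20 genes of this list tested. In that fit 530 of 15460 genes were called higher. Its highest genes were the inhibitors Nfkbia (29.2 to 56.8) and Nfkbib (11.1 to 18.7), and the adaptor Myd88 stood at 1.4 to 4.36. Of 13 listed genes of chemokine receptor signalling through G proteins, 3 were tested, the G protein subunits Gnai1, Gnai2 and Gnai3, and 0 were called by limma, with 0 at an unadjusted p under 0.05 and 0 by voom. Gnai3 (8.27 to 20.1) and Gnai2 (5.16 to 15) were the highest.

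Related genes outside the symbol rule were 26 listed cytokines and receptors of the same families, of which 8 were tested. By limma 0 of the 8 were called, with 0 at an unadjusted p under 0.05 and 0 by voom. Among them Csf1, the macrophage colony-stimulating factor, stood at 2.13 to 5.01. Ebi3, a subunit of IL-27 and IL-35, stood at 2.94 to 3.93 in all 6 libraries. Tslp, a cytokine of epithelia, stood at 1.72 to 2.68 and Crlf2, a chain of its receptor, at 1.96 to 3.64, so that both were above FPKM 1 in every library.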

How the data were processed

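RNA from oocytes was sequenced in 6 libraries, 3 per group, grouped by the labels. The authors deposited FPKM per gene, with no further scaling between libraries. Per the labels, reads were placed on GRCm38 (mm10); the aligner, the counting program and the strand setting are not given in the sources used here. Positions and promoter sequences came from RefSeq (GRCm38.p6) and overlaps from GENCODE M21. Whole reads were recovered from the ratios of FPKM between libraries, with the fewest reads that fit, in 100% of 22583 genes (relative tolerance 1e-09), and gave 14112341 to 33641283 reads per library. The floor was 3 reads. Intervals and floors cover counting error only.

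Genes with FPKM of at least 1 in at least 3 libraries were tested with limma 3.58.1 in R 4.3.3 (trended moderated variance, two-sided) on log2(FPKM + 1), with Benjamini-Hochberg adjustment over all 10340 genes. Calls needed an unadjusted p under 0.05 and a fold over 1.5. The table holds FPKM, so the tests for deposited counts that had been planned were not run, and limma's voom on the recovered reads was added after the values were seen. Deviations from the group mean correlated at 0.138, 0.14 and 0.552 between libraries of replicate numbers 1, 2 and 3 (over the tested genes). Control 2 correlated best with an aminophylline library of another number. The number was taken as a block in an alternative only. The pairing comes from the numbers in the labels, and no source says what they share.

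The genes described, the pathway and marker lists and the tests were chosen with earlier results of these data known. Values were given for genes reaching FPKM 1, genes with an unadjusted p under 0.05, the next 10 genes by highest value, genes with 20 reads or more in 1 library at 10 times any other, the ligand or receptor partners of all these, and of each list the called genes and the 2 highest. Some genes that fall under these rules are not reported here. Genes without overlap between groups were added after their values were seen. Tested on simulated reads with 4-fold changes, the fit recovered 200 of 200 changed genes among 10302 and called 16 others at an adjusted p under 0.05. The spread between simulated libraries was set to the same value for every gene, and no effect was shared by libraries of the same replicate number. The recovery therefore does not show how many changes the fit would find in these libraries. Recovery of smaller folds, such as those printed above for the called genes, was not tested. Python 3.11.15 with numpy 2.4.6 and pandas 2.3.3 was used for the rest.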

Additional observations from a re-analysis of the deposited data

How the results depend on the processing

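No fold change printed for Ccl2, Il1rap, Cxcl13, Il1r2, Il10rb, Ccl11, Cxcl14, Ccl25 or Pias4 changed sign under any alternative run. The number of the 112 genes called lower was 3, of the 33 tested. It was 2 with no filter (112 tested), 2 with a mean FPKM of at least 5 (11 tested) and 4 with median centring. It was 1 in the unmoderated model and 1 to 6 when a library was left out. The number called higher was 0. It was 1 with voom on the same genes (Cxcl14), 1 with voom on genes with 10 reads in 3 libraries (Cxcr2), and 0 to 2 when a library was left out. With the replicate block, 0 of these genes were called higher and 3 lower, as without it, and Ccl2 had an adjusted p of 0.0219 by limma. With the block 7 of them instead of 5 had an unadjusted p under 0.05 by limma, against 1467 of all genes instead of 750. The block raised the calls in the signalling lists from 1 to 2 (Socs7) and changed no other call printed. Of the 37 list genes tested, 0 were called in the unmoderated model and 1 to 7 when a library was left out. With voom on genes with 10 reads, 3 of 64 list genes were called.

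Over all genes, 215 were called higher and 117 lower. Higher calls were 119 with a mean FPKM of at least 5 (fewer genes tested), 127 with quantile normalization, 132 with median centring, 99 in the unmoderated model and 530 with voom on genes with 10 reads, where 15460 genes were tested. They were 147 after rescaling to a common sum, with 151 lower. Lower calls were 217 with quantile normalization, 227 with median centring, 59 in the unmoderated model, 189 with voom on the same genes and 237 with voom on genes with 10 reads. Leaving out a library gave 123 to 876 higher and 60 to 403 lower calls. The cause of these shifts was not tested. The adjusted p of Ccl2 ranged from 0.0219 to 0.999, that of Il1rap from 0.156 to 0.999 and that of Cxcl13 from 0.0756 to 0.999 over the alternatives. The number reaching FPKM 1 in some library was 45 at a level of 0.5 and 30 at a level of 2, against 37. The planned tests for tables of counts were left out, since the values are FPKM. Control 2 limits the counts of genes with few reads, since it holds 14112341 reads.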
